A study of Mus musculus with 8 samples.

Results

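Cycling hematopoietic stem cells (HSCs) were taken as the single cells in which at least 3 of 6 cell cycle genes had a value above 0. The 6 genes were Mki67, Top2a, Ccnb1, Cdk1, Ube2c and Birc5. This rule picked 196 of the 586 cells of the series, 132 of 304 labelled wild type (WT) and 64 of 282 labelled Med23-/- (KO). They were compared with the 103 cells in which none of the 6 genes was detected, called 0-marker cells here, of which 33 were labelled WT and 70 KO. The other 287 cells had 1 or 2 of the genes.

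All cells came from the bone marrow of adult C57BL/6 mice homozygous for a loxP-flanked Med23 allele (Med23 L/L). Med23 is a subunit of Mediator, the complex that links transcription factors to RNA polymerase II. KO mice carried the Mx1-cre transgene, which is switched on by interferon in many cell types, WT mice were littermates without it, and both received poly(I:C), a mimic of double-stranded RNA that induces interferon. Cells were sorted as Lin-Sca1+c-Kit+ and CD150+CD34-CD48-, picked by hand and primed at the poly(A) tail with barcoded oligo-dT that also tags each captured molecule with its own unique molecular identifier (UMI), which lets amplified copies be collapsed. The labels list 8 libraries, 4 per genotype, but the column names of the table give only the genotype and a cell number. Each label was therefore 1 pool, no barcode could be compared between libraries, and the differences given here were not checked across replicates. Intervals are exact 95% intervals and cover counting error only.

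Adult HSCs are mostly out of cycle, in G0, and enter division rarely. On entry, D-type cyclins with CDK4 or CDK6 release E2F factors, which turn on genes for DNA replication and nucleotide synthesis in S phase. Later the B-Myb and FoxM1 factors act at promoters that hold a short element called CHR and often CCAAT boxes. The genes for chromosome condensation, spindle and cell division then rise through G2 and mitosis. Interferon, which poly(I:C) induces, is known to push HSCs into cycle for a time.

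The 6 genes that defined the cells belong to the later stages of this program. Mki67 coats mitotic chromosomes, Top2a untangles DNA, Ccnb1 and Cdk1 form the kinase that starts mitosis, Ube2c passes ubiquitin for the anaphase-promoting complex and Birc5 (survivin) belongs to the chromosomal passenger complex. Their promoters are shown because the same cell cycle elements recur in most of them. Each line gives the 150 bases before the start site from RefSeq (GRCm38.p6), 5′ to 3′ on the strand of the gene. The expression table was made on build mm9, and no coordinate of that build is used. Capitals mark matches, on either strand, to TTTGAA (CHR), CCAAT, or the E2F cores TTCCCGC and TTGGCGC.
Mki67, chr7:135716380-135716529, minus strand: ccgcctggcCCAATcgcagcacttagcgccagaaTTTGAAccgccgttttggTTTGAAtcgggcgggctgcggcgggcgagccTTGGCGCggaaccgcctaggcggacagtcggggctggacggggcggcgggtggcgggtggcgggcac
Top2a, chr11:99024190-99024339, minus strand: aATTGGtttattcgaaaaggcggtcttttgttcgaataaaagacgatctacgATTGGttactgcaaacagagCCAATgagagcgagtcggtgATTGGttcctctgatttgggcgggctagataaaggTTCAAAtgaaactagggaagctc
Ccnb1, chr13:100786487-100786636, minus strand: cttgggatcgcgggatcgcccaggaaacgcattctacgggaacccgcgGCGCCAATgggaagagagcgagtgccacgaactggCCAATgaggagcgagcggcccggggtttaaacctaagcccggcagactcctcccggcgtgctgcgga
Cdk1, chr10:69352913-69353062, minus strand: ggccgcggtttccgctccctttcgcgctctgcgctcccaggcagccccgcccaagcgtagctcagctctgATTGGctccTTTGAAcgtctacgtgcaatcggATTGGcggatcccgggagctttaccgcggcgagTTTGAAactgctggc
Ube2c, chr2:164769779-164769928, plus strand: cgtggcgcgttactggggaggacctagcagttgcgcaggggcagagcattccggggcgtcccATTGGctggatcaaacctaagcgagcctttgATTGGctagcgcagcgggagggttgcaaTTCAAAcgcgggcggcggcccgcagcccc
Birc5, chr11:117849087-117849236, plus strand: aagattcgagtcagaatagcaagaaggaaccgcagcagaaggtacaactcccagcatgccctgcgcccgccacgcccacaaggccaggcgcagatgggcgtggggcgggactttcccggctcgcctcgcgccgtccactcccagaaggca

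Over the longer window of 250 bases before to 50 after the start, the CHR letters were found for 4 of the 6 genes, CCAAT for 5 and an E2F core for 3. The E2F match of Ccnb1 overlaps its upstream CCAAT and shares the letters CCAA. The Birc5 window held none of the letters searched. Of the 86 promoters found for 77 of the 94 measured genes of a G2 and mitosis list, 57.0% held CHR, 70.9% CCAAT and 20.9% an E2F core. Among the 11004 promoters of all genes in the table the shares were 12.3%, 38.0% and 12.2%. These are letter matches and do not show that a factor was bound.

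The share of cells that met the rule was 43.4% (37.8 to 49.2%) of those labelled WT and 22.7% (17.9 to 28.0%) of those labelled KO. Depth moved with the rule. The median cell held 74640 UMIs among WT cycling cells, 37351 among WT cells with 1 or 2 rule genes and 26531 among WT 0-marker cells, and the KO medians were 65448, 39584 and 27810 UMIs. More RNA per cell and a better chance to detect the 6 genes cannot be told apart in these counts. To compare cells at equal depth, each cell of at least 20000 UMIs was thinned at random to 20000 UMIs. The rule applied to the thinned counts gave 66 of 259 WT cells, or 25.5% (20.3 to 31.2%), and 32 of 235 KO cells, or 13.6% (9.50 to 18.7%).

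A second feature moved with the label. Transcripts of oocyte genes such as Zp3, which encodes a protein of the egg coat, were present in part of the cells, and 98 WT cells but only 10 KO cells had over 1000 CPM (UMIs scaled to 1000000 in all per cell or class) of the 53 measured genes of an oocyte list. Of the WT cycling cells 52, or 39.4%, were of this kind, against 1 of the KO cycling cells. In WT cells with over 1000 CPM of oocyte genes Birc5 stood at 185 CPM (165 to 207), Ube2c at 119 and Ccnb1 at 71.4, whereas Mki67 stood at 32.7 and Top2a at 59.5. In WT cells with up to 200 CPM of oocyte genes the same genes stood at 108 (91.4 to 126), 50.7, 29.2, 106 and 210 CPM. Birc5, Ube2c and Ccnb1 were higher, and Mki67 and Top2a lower, in the cells rich in oocyte transcripts than in those with few. The part of these transcripts in the shares was not tested. Without the cells over 1000 CPM the share at equal depth was 35 of 175, or 20.0% (14.3 to 26.7%), for WT and 31 of 229, or 13.5% (9.39 to 18.7%), for KO. These intervals overlap. At the same depth 31 of the 84 WT cells left out, or 36.9% (26.6 to 48.1%), met the rule. Without the cells over 1000 CPM the shares at 40000 UMIs were 37.7% (29.1 to 46.9%) for WT and 21.8% (15.3 to 29.5%) for KO. At full depth they were 38.8% (32.1 to 45.9%) and 23.2% (18.3 to 28.6%).

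**Figure D1:**
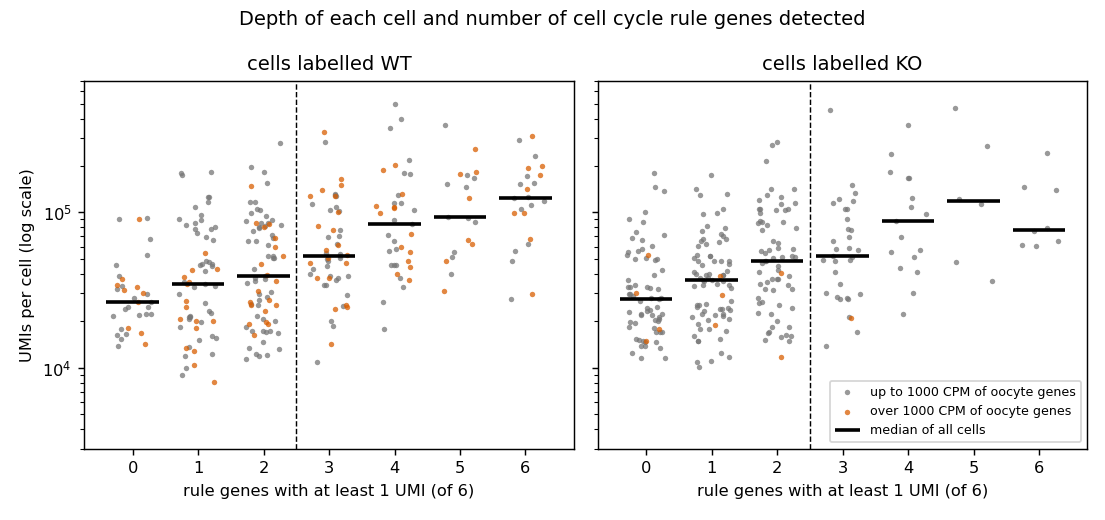
UMIs per cell on a log scale against the number of the 6 rule genes detected, for the 304 cells labelled WT and the 282 labelled KO, with 1 point per cell, the median as a bar and the rule's threshold as a dashed line. Medians rose from 26531 UMIs at 0 genes to 123190 at 6 in WT and from 27810 to 77457 in KO, and the cells with over 1000 CPM of oocyte genes (orange) were mostly WT.

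The comparison of genes used the thinned cells with at most 1000 CPM of oocyte genes, 77 cycling and 18 0-marker cells labelled WT and 61 and 48 labelled KO. Summed counts under 3 were raised to 3 in log2 ratios and calls, and a gene was called higher or lower when the ratio of CPM passed 2-fold. Ratios of single genes that are not on the log2 scale use the counts as they are. There only a 0-marker count of 0 was raised to 3, and the ratio is given as at least that value. The rule genes were at 0 in the 0-marker cells by definition. In WT and KO cycling cells respectively, Top2a stood at 316 and 514 CPM, Mki67 at 182 and 184, Birc5 at 206 and 186, Cdk1 at 134 and 162, Ube2c at 131 and 116 and Ccnb1 at 69.5 and 22.1. Top2a was detected in 54.5% of the thinned WT and 73.8% of the thinned KO cycling cells, and Ccnb1 in 32.5% and 16.4%. These levels chose the cells and are given as a description.

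Genes of G2 and mitosis that the rule did not use were higher in the cycling cells of both labels. Of the 94 measured, 69 passed 2-fold in WT and 81 in KO, and 63 did so in both, with none lower in both. Over all 10714 genes compared, 13.4% passed 2-fold higher in WT, 13.8% in KO and 3.08% in both. The list's median log2 ratio was 1.74 in WT and 2.61 in KO, where the median of all genes was -0.10 and 0.00. For genes with under 3 UMIs in the 0-marker cells these ratios are set against 3 UMIs, which is 8.33 CPM in WT and 3.12 in KO. This limits the ratios more in WT. Summed over the list, the log2 ratio was 1.71 (1.64 to 1.78) in WT and 1.71 (1.66 to 1.76) in KO. The difference between labels was not tested.

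Ccnb2, a B-type cyclin, held 372 UMIs in WT cycling cells and 3 in WT 0-marker cells, a ratio of CPM of 29.0 (9.84 to 141). In KO cells it held 195 and 2 UMIs, a ratio of 76.7 (21.0 to 638). Spc25, a subunit of the Ndc80 kinetochore complex, was 9.97 times higher (3.34 to 49.0) in WT and 34.1 times (11.4 to 167) in KO. Nusap1, which bundles spindle microtubules, held 145 UMIs in WT cycling cells against 1, a ratio of 33.9 (5.99 to 1348), and 110 against 0 in KO, at least 28.9-fold higher. All 3 were near or at 0 without the rule genes and abundant with them.

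The 15 genes with the highest smaller ratio of the 2 labels, among those with at least 100 UMIs, were Ccnb2, Pclaf, Tk1, Cenpm, Pbk, Nusap1, Clspn, Cdca3, Spc25, Prc1, Asf1b, Kif22, Hmmr, Nrm and Esco2. Cenpm, Spc25, Nusap1, Prc1, Kif22 and Hmmr act at centromeres and the spindle, Cdca3 at mitotic entry, and Esco2 acetylates cohesin to hold sister chromatids together. The abundant members of the G2 and mitosis list were detected in most cells of both classes and differed in level. Tubb5, a beta-tubulin, stood at 2436 CPM in WT cycling cells and 728 in 0-marker cells, a log2 ratio of 1.74 (1.56 to 1.93), and at 2746 and 1148 in KO, 1.26 (1.16 to 1.36). H2afz, the histone variant H2A.Z, gave 1.84 (1.63 to 2.04) and 1.39 (1.26 to 1.51), and Stmn1, which destabilises microtubules, 1.31 (1.13 to 1.5) and 1.56 (1.43 to 1.68).

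S phase genes were higher as well. Of the 65 measured, 42 passed 2-fold higher in WT, 50 in KO and 34 in both, and the median log2 ratio was 1.23 in WT and 1.86 in KO. Summed over the list, the log2 ratio was 1.20 (1.10 to 1.30) in WT and 1.69 (1.62 to 1.76) in KO. Lig1, the ligase that joins Okazaki fragments, stood at 139 CPM in WT 0-marker and 428 in WT cycling cells, a log2 ratio of 1.62 (1.21 to 2.07), and at 58.3 and 516 in KO, 3.14 (2.75 to 3.56). Pclaf, a partner of the sliding clamp PCNA, held 392 UMIs against 2 in WT and 283 against 8 in KO, ratios of 45.8 (12.6 to 380) and 27.8 (13.9 to 65.1). Pcna itself gave log2 ratios of 0.72 (0.34 to 1.13) in WT, under 2-fold, and 1.32 (1.05 to 1.59) in KO. Clspn, which carries the replication checkpoint signal, had 133 UMIs in WT cycling cells and none in the 0-marker cells, at least 10.4-fold higher.

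Enzymes that make nucleotides followed, with 12 of 22 past 2-fold higher in WT, 13 in KO and 9 in both and medians of 1.11 and 1.19. Over all genes 13.4%, 13.8% and 3.08% passed. Tk1, the S phase thymidine kinase, held 301 against 4 UMIs in WT, a ratio of 17.6 (6.80 to 65.0), and 302 against 4 in KO, 59.4 (23.0 to 219). Dctpp1, which clears unusual nucleotides, gave log2 ratios of 1.16 (0.80 to 1.54) and 1.0 (0.74 to 1.26), and Impdh2, of guanine nucleotide synthesis, 0.43 and 0.41. Among 42 chromatin genes, 7 passed 2-fold higher in WT and 6 in KO, where 13.4% and 13.8% of all genes did. In both labels 1 passed, where 3.08% of all genes did. This was the histone chaperone Asf1b, with 122 against 0 UMIs in WT (at least 9.51-fold higher) and 85 against 1 in KO. The chromatin proteins Hmgn2 and Hmgb1 gave log2 ratios of 0.76 and 0.64 in WT and 1.19 and 0.64 in KO.

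Cyclins, CDKs and other regulators of the cycle were split. The list held cyclins, CDKs and E2F and Rb family members, with other regulators such as Lin54, Skp2, Wee1 and Chek1. Of its 32 genes, 3 passed 2-fold higher and 5 lower in both labels, where 3.08% and 3.41% of all genes did. The medians were 0.02 in WT and 0.31 in KO. Ccnd2, the main D-type cyclin by UMIs, stood at 1022 CPM in WT cycling cells and 1394 in 0-marker cells, a log2 ratio of -0.45 (-0.59 to -0.30), and at 1141 and 1759 in KO, -0.62 (-0.73 to -0.52). Its partner Cdk4 was higher, by 1.10 (0.77 to 1.46) in WT and 0.77 (0.55 to 1.0) in KO, and Cdk6 by 0.09 and 0.46. Of 32 CDK inhibitors and other quiescence genes, none was past 2-fold higher in both labels and 2 were lower, where 3.08% and 3.41% of all genes were.

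**Figure D2:**
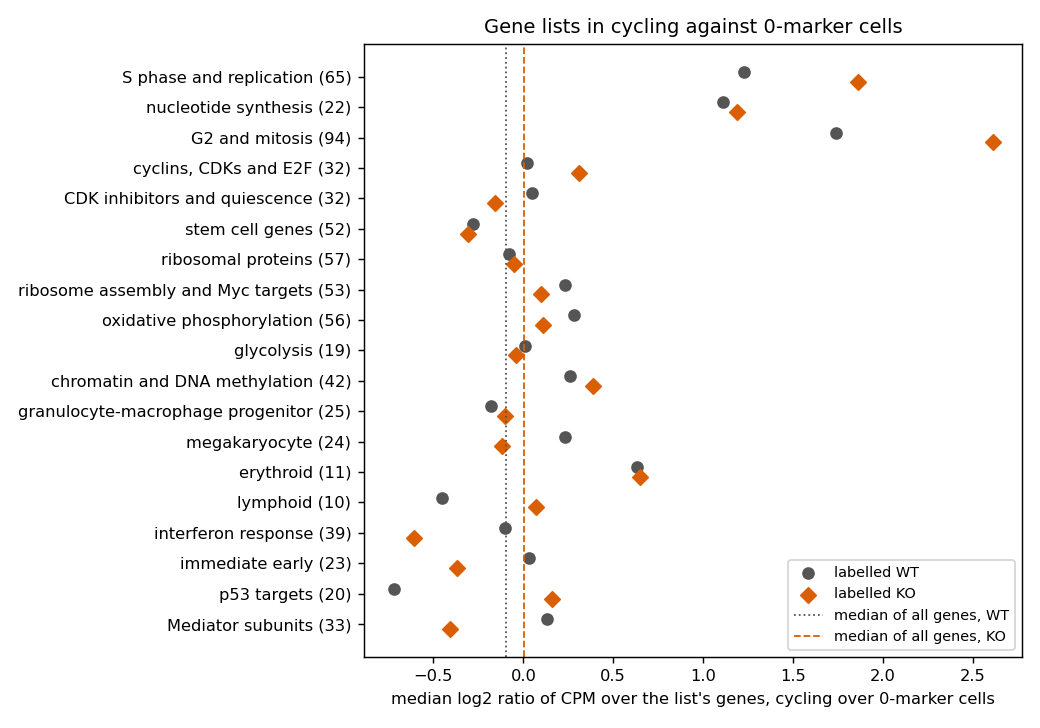
Median log2 ratio of CPM in cycling over 0-marker cells for 19 gene lists, with the number of measured genes in brackets, for the labels WT (circles) and KO (diamonds), and the median of all genes as vertical lines. The S phase, nucleotide and G2 and mitosis lists lie at 1.11 or more in both labels, and the stem cell list lies below 0 in both.

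Ribosomal protein genes stayed within 2-fold, as did all but a few genes of the respiratory chain. None of 57 ribosomal protein genes passed 2-fold in either direction in either label, and their medians were -0.08 in WT and -0.05 in KO. Of 56 genes of oxidative phosphorylation, 2 passed 2-fold higher in WT and none in KO, with medians of 0.28 and 0.11. Ribosome assembly and Myc target genes had medians of 0.23 and 0.10, and glycolytic genes of 0.01 and -0.04. Npm1, a nucleolar chaperone, stood at 1652 against 994 CPM in WT, 0.73 (0.57 to 0.90), and at 1134 against 1036 in KO, 0.13 (0.01 to 0.25).

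HSC genes were present in cycling cells, and more of them were lower than higher. Of 52 measured, 23 (44.2%) were lower and 7 (13.5%) higher in both labels, against 26.1% of all genes lower and 23.9% higher in both. Past 2-fold in both labels 2 were higher and none lower, where 3.08% and 3.41% of all genes were. The medians were -0.28 in WT and -0.31 in KO. Per cell, the list summed to a median of 215 UMIs per 20000 in 0-marker cells of each label, to 193 in WT and 186 in KO cells with 3 or 4 rule genes, and to 120 and 131 in cells with 5 or 6. Relative to the median of all genes the list stood at -0.18 in WT and -0.31 in KO, and in WT at 0.39 with cells of 40000 to 120000 UMIs. The ranges overlapped, 61 to 237 UMIs in the 25 WT cells with 5 or 6 rule genes against 100 to 454 in the 18 WT 0-marker cells.

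Ifitm1 and Ifitm3 are also on the interferon response list described below. Ifitm1, an interferon-induced membrane protein and an HSC marker, held the most UMIs of the HSC list. It stood at 2731, 2502, 2099 and 720 CPM in WT cells with 0, 1 or 2, 3 or 4, and 5 or 6 rule genes, and at 2560, 2196, 1920 and 975 in KO. Kit, the stem cell factor receptor used for the sort, gave log2 ratios of -0.47 (-0.86 to -0.07) in WT and -0.85 (-1.19 to -0.52) in KO, and was still detected in 72.7% and 57.4% of cycling cells. Lmo2, a bridge between blood transcription factors, gave -0.60 (-0.80 to -0.40) in WT and -0.16 (-0.34 to 0.02) in KO. Cd34, whose protein was gated against, had at least 1 UMI in 67.5% of WT and 85.2% of KO cycling cells. Ifitm3, Cd34, Esam and Ly6a of the list did not fall in both labels. Their ratios of CPM were 1.14 (1.03 to 1.26), 1.46 (1.04 to 2.1), 0.806 (0.564 to 1.18) and 1.1 (0.901 to 1.35) in WT. In KO they were 0.577 (0.54 to 0.616), 1.03 (0.873 to 1.21), 3.29 (1.68 to 7.04) and 0.866 (0.695 to 1.08).

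**Figure D3:**
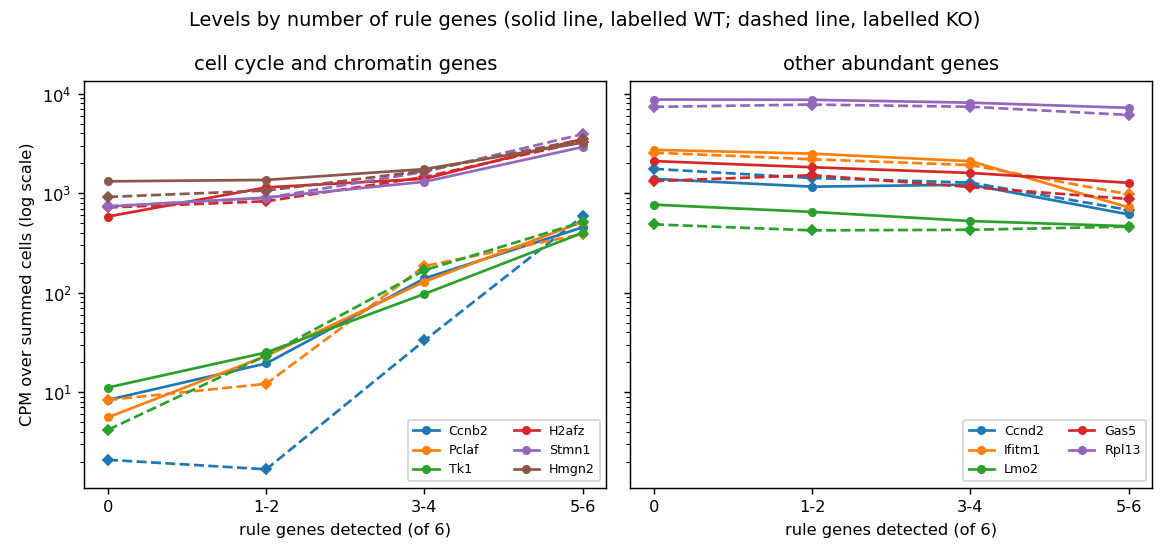
CPM on a log scale of 11 genes in summed cells with 0, 1 or 2, 3 or 4, and 5 or 6 rule genes, in cells labelled WT (solid) and KO (dashed). With 0 rule genes Ccnb2, Pclaf and Tk1 stood at most at 11.1 CPM and with 5 or 6 at 389 or more, H2afz, Stmn1 and Hmgn2 at 2916 or more, and Ifitm1 at 720 in WT and 975 in KO.

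The 10 genes with the lowest ratios in both labels, picked by the mirror of the rule for the highest genes, were Jade2, Mylip, Mbd2, Klf9, Specc1l, Abhd10, Nfkbie, Bcl7a, Trim26 and Tmf1. Klf9, a Krüppel-like factor, held 20 UMIs in the WT cycling cells and 30 in the far fewer 0-marker cells, 13.0 against 83.3 CPM, a log2 ratio of -2.68 (-3.58 to -1.82). In KO it stood at 13.1 against 56.2 CPM, -2.10 (-3.01 to -1.27). Jade2, a chromatin adaptor, gave -2.93 in WT and -2.99 in KO. They held few UMIs, at most 78 in the WT cycling cells, and few cells can weigh heavily on them. Tmf1 in WT turned from -1.90 to 0.11 when, for each gene, the cell with most UMIs was left out.

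Interferon response genes were mostly lower in cycling cells labelled KO. Of them 31 of 39 were lower and 12 passed 2-fold lower, where 12.5% of all genes did, with a median of -0.61. In WT 5 passed 2-fold lower, where 17.5% of all genes did, 4 passed higher, and the median was -0.10. Ifitm3 stood at 1274 against 2208 CPM in KO, -0.79 (-0.89 to -0.70), and at 1399 against 1228 in WT, 0.19 (0.04 to 0.34). Summed over the list, KO 0-marker cells held 9504 CPM, KO cycling cells 6345, WT 0-marker cells 6900 and WT cycling cells 5880. Ifitm1 and Ifitm3, which held the most UMIs of this list in cycling cells, are also on the HSC list, so the sums of both lists share them. Ifitm1 gave ratios of CPM of 0.605 (0.562 to 0.652) in WT and 0.665 (0.627 to 0.706) in KO. The difference between labels was not tested.

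Within the cycling cells the lists varied widely. At 20000 UMIs per cell the G2 and mitosis list summed to a median of 157 UMIs in WT cycling cells, with a range of 31 to 1050, and 237 in KO, 57 to 1172. In 0-marker cells the medians were 81.5 and 93.5 and the highest cells held 167 and 198. Of the cycling cells 37 of 77, or 48.1%, in WT and 33 of 61, or 54.1%, in KO lay above that highest cell. The others held no more of these transcripts than some 0-marker cell did.

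Cells just inside and just outside the rule had similar medians of the G2 and mitosis list. With exactly 3 rule genes the median was 99 UMIs in 30 WT cells and 105 in 30 KO cells, and with exactly 2 it was 105 in 43 and 100 in 57. The share above the highest 0-marker cell was 16.7% in WT and 33.3% in KO with 3 rule genes, against 16.3% and 10.5% with 2, close in WT and apart in KO. With 5 or 6 rule genes it was 84.0% of 25 and 92.9% of 14 cells. The rule thus took in cells with a low level of the other mitotic genes, most of them at 3 genes. At 20000 UMIs and without the cells rich in oocyte genes, 9.14% (5.32 to 14.4%) of WT and 3.93% (1.81 to 7.33%) of KO cells had 5 or more.

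The S phase list was highest in cells with 5 rule genes and the G2 and mitosis list in cells with 6. Cells with 5 rule genes held a median of 223 UMIs of the S phase list in WT and 234 in KO, above the 114 and 105 of cells with all 6. For the G2 and mitosis list the order was the reverse, with 523 and 388 UMIs at 5 genes and 697 and 823 at 6. The ranges overlapped, for the S phase list at 46 to 320 UMIs against 25 to 283 in WT and 103 to 317 against 57 to 280 in KO. The 0-marker cells held 38.5 and 36 UMIs of the S phase list. The cells with 6 genes numbered 14 in WT and 8 in KO, and those with 5 numbered 11 and 6.

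**Figure D4:**
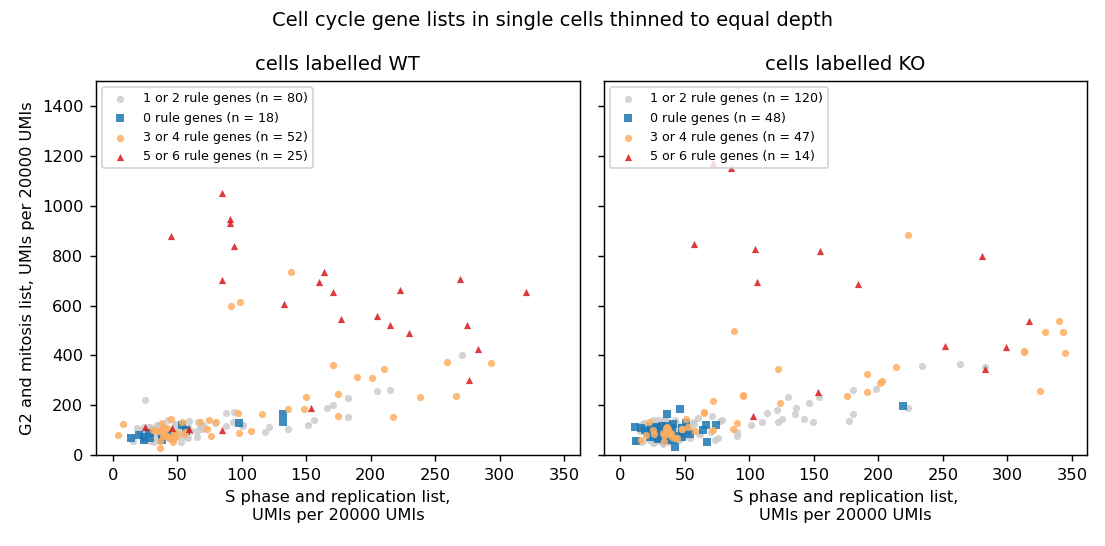
UMIs of the G2 and mitosis list against UMIs of the S phase and replication list in single cells thinned to 20000 UMIs, without cells of over 1000 CPM of oocyte genes, by label and by number of rule genes. The 0-marker cells (squares) stay at or below 167 G2 and mitosis UMIs in WT and 198 in KO, while cells with 5 or 6 rule genes (triangles) reach 1050 and 1172, and many cells with 3 or 4 (orange circles) lie among the 0-marker cells.

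Cycling cells of the 2 labels were then set beside each other. Med23 itself held 10 UMIs in WT and 11 in KO cycling cells, too few to compare, and the log2 ratio of KO over WT was 0.47 (-0.90 to 1.87), so the label is not seen in this messenger. A 3′ end that a deletion leaves in place would still be counted, and whether the counted part was deleted is not given in the sources used here. Mki67, a rule gene that helped choose these cells, stood at a log2 ratio of 0.02 (-0.24 to 0.27), given only as a description. Of the 94 G2 and mitosis genes 8 passed 2-fold higher in KO and 4 lower, and of the 65 S phase genes 4 and 2, where 12.9% and 9.42% of all genes did. Their medians were 0.06 and 0.16. Ribosomal proteins were lower in KO for 55 of 57 genes in cycling cells, with a median of -0.18. In 0-marker cells 53 were lower, with a median of -0.24, and none passed 2-fold in either class. The medians of all genes were 0.03 and 0.02.

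Several named genes differed between the labels in the same direction in both classes. The study had reported Itgam, Tyrobp and Ddx4 higher and Mt1, Esam and Gimap4 lower in KO in these same cells. Their differences are therefore given only as a description. From bulk RNA sequencing of sorted HSCs it had reported S100a4 and S100a6 higher and Ly6a and Egr1 lower in KO, among others. Among 0-marker cells 15.8% of all genes passed 2-fold higher in KO and 15% lower. S100a6, a calcium-binding protein of myeloid and other cells, stood at 514 CPM in KO and 138 in WT cycling cells, a log2 ratio of 1.89 (1.67 to 2.12), and at 0.83 (0.51 to 1.17) in 0-marker cells. Its relative S100a4 gave 2.33 (1.94 to 2.73) and 1.72 (1.19 to 2.30). Itgam, the CD11b integrin chain of myeloid cells, held 43 UMIs in KO and 3 in WT cycling cells, a log2 ratio of 4.18 (2.53 to 6.51), and 24 UMIs against 0 in 0-marker cells. Tyrobp, a signalling adaptor of myeloid and NK cells, gave 1.04 (0.63 to 1.47) in cycling and 3.18 (2.17 to 4.41) in 0-marker cells, and the first fell to -0.01 when the rule was applied to the thinned counts.

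Ly6a, which encodes Sca1, was lower in KO in both classes, with -1.34 (-1.60 to -1.09) and -1.0 (-1.35 to -0.64) on the log2 scale. Esam, a junction protein of HSCs and endothelium, gave -1.25 (-1.76 to -0.76) in cycling and -3.28 (-4.39 to -2.29) in 0-marker cells. Gata1, the erythroid and megakaryocyte factor, held 66 UMIs in WT and 5 in KO cycling cells, -3.39 (-5.06 to -2.09). The immediate early genes Fos and Jun were higher in KO, by 1.93 (1.65 to 2.21) and 1.41 (1.17 to 1.65) in cycling and by 3.06 (2.43 to 3.76) and 2.07 (1.64 to 2.54) in 0-marker cells. Egr1, another immediate early gene, went the other way, with 56 UMIs in WT and 15 in KO cycling cells, -1.56 (-2.49 to -0.72), but stood at 1.40 when the rule was applied to the thinned counts. Whether a difference between labels was itself different between cycling and 0-marker cells was not tested.

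**Figure D5:**
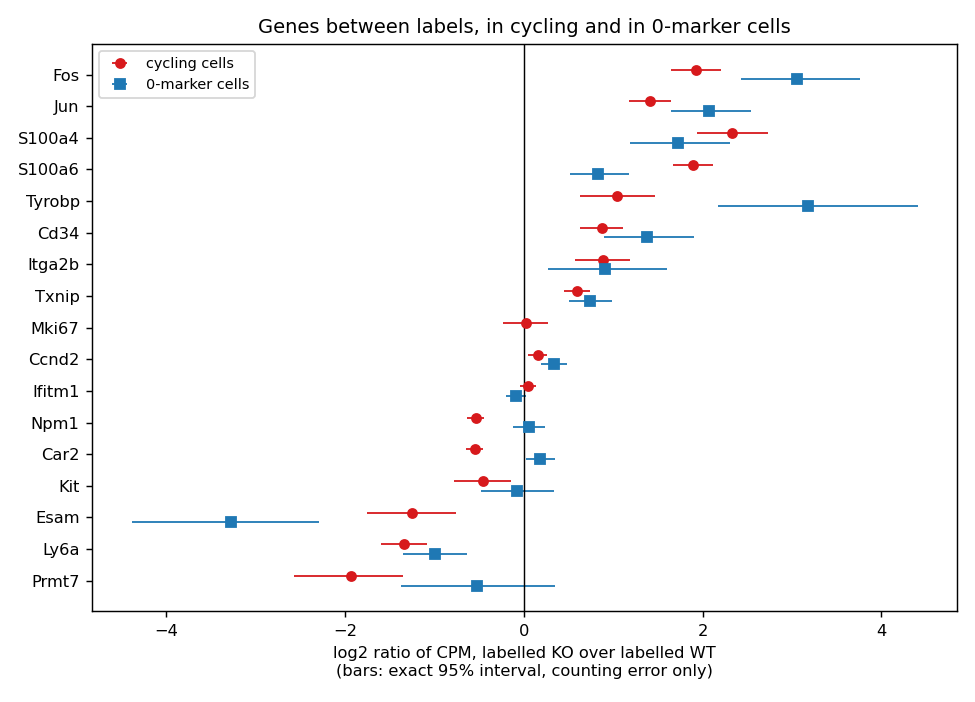
Log2 ratio of CPM in cells labelled KO over cells labelled WT for 17 named genes, in cycling cells (circles) and 0-marker cells (squares), with exact 95% counting intervals. Fos, Jun, S100a4 and S100a6 lie above 0 and Esam and Ly6a below 0 in both classes. Mki67, a rule gene that helped choose the cells, lies at 0.02 in cycling cells and has no value in 0-marker cells.

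Of the marker lists for other cells, none summed to more in cycling than in 0-marker cells of both labels. The neutrophil list had 3 of 15 genes in the table. It summed to 70.1 CPM in WT cycling and 172 in WT 0-marker cells and to 55.7 and 49.0 in KO. Its member S100a9 was at 0 in WT 0-marker cells, and S100a8 held 6 UMIs in WT cycling and 52 in WT 0-marker cells. Cxcr2 went the other way in WT, with 93 against 10 UMIs, a ratio of CPM of 2.17 (1.13 to 4.68). The macrophage and monocyte list, with 4 of 17, summed to 327 and 475 CPM in WT and 281 and 342 in KO. Of its genes 1 was higher and 2 were lower in both labels. The higher one was Cd68, at ratios of CPM of 4.21 (1.08 to 36.1) in WT and 1.39 (0.907 to 2.17) in KO. The lymphoid list, with 10 of 31, summed to 363 and 442 in WT and 530 and 451 in KO. Of its genes 3 were higher and 3 lower in both labels. Nkg7 was among the higher, at ratios of CPM of 5.1 (2.87 to 10) in WT and 1.62 (1.28 to 2.05) in KO. Stroma and endothelium, with 10 of 20, summed to 83.1 and 97.2 in WT and to 152 and 138 in KO. The erythroid list, with 11 of 25, summed to 2077 against 1428 CPM in WT, most of it carbonic anhydrase Car2 at 1613 against 1108, and to 1599 against 1678 in KO. The granulosa and embryo list, with 5 of 25, summed to 194 against 325 CPM in WT and 139 against 133 in KO, and the oocyte genes that remained to 314 against 242 and 150 against 181. The part of these markers in the results above was not tested.

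The comparison was limited by the 18 WT 0-marker cells, in which 1 UMI in all is 2.78 CPM, and by depth, since members were deeper before thinning. Cells of 40000 to 120000 UMIs in both classes left 40 WT cycling cells against 5 and 34 KO cycling cells against 17. There the G2 and mitosis genes past 2-fold higher numbered 23 in WT and 63 in KO. The list's median log2 ratio was 0.32 in WT and 1.58 in KO, where the median of all genes was -0.58 and 0.00.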

How the data were processed

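The authors assigned reads to cells by barcode, aligned them to the mm9 transcriptome, counted UMIs, filtered cells and genes, and normalized. Which aligner and which normalization they used is not given in the sources used here. The values they deposited are log2 of a normalized count plus 1 for 10720 genes in 586 cells. With the log2 undone, values in a cell were whole multiples of its smallest value (100% within 0.01), so UMIs were recovered, 39085410 in all. By the methods a cell needed 2000 genes and 20000 transcripts, and 259 of 304 WT and 235 of 282 KO cells held 20000 UMIs of the genes listed. Cells of at least 20000 UMIs were thinned to 20000 (NumPy 2.4.6, seed 1), those with over 1000 CPM of oocyte genes were left out and UMIs were summed per class. Ratios have Clopper-Pearson and CPM values Poisson 95% intervals (SciPy 1.17.1). No test was run, since each label is 1 pool and cells are not replicates. Doublets were not called, as each cell was hand-picked. Thinning and ratios were tested on simulated data. Genes named are the 6 rule genes, the 15 highest and 10 lowest genes shared by both labels (at least 100 UMIs, intervals off 1), the 3 most abundant of each list and genes the study names, with fewer printed. Promoters were matched by symbol or RefSeq synonym. The S phase and ribosomal protein promoter shares were void, since under 80% of genes had a promoter. The members and lists were chosen with earlier results of these data known.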

Additional observations from a re-analysis of the deposited data

Results flagged for a closer look

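Tyrobp, Fos, Ifitm3, Car2 and Cox4i1 moved in opposite directions in cycling over 0-marker cells of the 2 labels, with both counting intervals off 0. The difference between labels was not tested, and each label is 1 pool. Tyrobp gave a log2 ratio of 1.21 in WT (79 against 8 UMIs) and -0.93 in KO. Fos gave 0.69 in WT, with 145 against 21 UMIs, and -0.44 in KO. Over 14 alternatives the WT value of Ifitm3 turned in 3 and the KO value of Fos in 3, while Tyrobp kept its direction in both labels. Ifitm3 gave 0.19 and -0.79, Car2 0.54 and -0.19, and Cox4i1, a subunit of cytochrome c oxidase, -0.19 and 0.17.

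In the WT cells left out of the comparison for their oocyte transcripts, Birc5 stood at 185 CPM, above the 84.0 and 108 CPM of WT cells with 200 to 1000 and with up to 200 CPM of oocyte genes. It had at least 1 UMI in 66.7% of these 84 thinned cells, against 27.2% and 25%.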

How the results depend on the processing

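The medians of the G2 and mitosis and the S phase lists kept their direction in both labels under all 14 alternatives. Medians of the lists and of all genes, single-gene ratios and gene counts between labels in 0-marker cells were set against their main values. Of these values, 3161 stayed within a counting interval or a fixed tolerance, 1021 moved beyond it, and 28 that were past 2-fold reversed. Of the shares, other gene counts and list levels per cell, 131 stayed and 43 moved. The cause was not tested. No paired analysis was possible because column names hold neither a library nor a replicate number, so leaving out each library was not run either. The comparison with cells of 0 or 1 rule gene and the joint settings of the share were chosen after seeing the data.

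The share of cycling cells followed depth and the rule. For WT it was 15% when thinned to 10000 UMIs and 25.5% to 20000, and without cells of over 1000 CPM of oocyte genes 16.2%, 20.0% and, at 40000, 37.7%. For KO it was 9.93% and 13.6%, and without those cells 10.3%, 13.5% and, at 40000, 21.8%. With at least 2, 4 and 5 rule genes it was 68.4%, 26.0% and 13.8% for WT and 47.2%, 11% and 4.96% for KO. At least 5 genes at 20000 UMIs gave 8.11% and 3.83%, and 9.14% and 3.93% without the cells rich in oocyte genes. At least 2 UMIs per gene gave 19.1% and 9.57%, and a minimum of 2000 genes and 20000 UMIs gave 49.4% for WT and 26.5% for KO. Without Mki67, Top2a, Ccnb1, Cdk1, Ube2c or Birc5 in the rule WT gave 36.5%, 34.2%, 38.2%, 35.2%, 34.2% and 29.9%. In the same order KO gave 16.3%, 12.8%, 20.6%, 17.4%, 18.4% and 15.6%.

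Genes past 2-fold higher in WT numbered 921 when thinned to 10000 UMIs, 839 with cells of 40000 to 120000 UMIs and 4418 with the authors' normalized values, against 1436. Those lower numbered 3107 when thinned to 40000, 3487 with 40000 to 120000 UMIs and 584 with normalized values, against 1879. For KO the normalized values gave 3057 higher and 579 lower, against 1478 and 1339, and leaving out the top cell of each gene gave 855 lower. The normalized values, which carry each cell's own weight, had a median of all genes of 0.80 in WT and 0.56 in KO. Relative to it the G2 and mitosis list stood at 2.80 and 3.51 and the stem cell list at -0.36 and -0.41. With 40000 to 120000 UMIs 14 S phase and 23 G2 and mitosis genes passed in WT. The median WT cycling cell held 4550 CPM of the S phase list, and 3450 with every cell of at least 20000 UMIs.

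The values that reversed were mostly of genes with few UMIs or of a small list. The stroma and endothelium median in WT turned to 0.29 with every cell, 0.28 with normalized values and 0.09 against cells with 0 or 1 rule gene. A limit of 200 CPM of oocyte genes per cell turned Bcl7a to 0.71, Dppa3 to -0.95, Egr1 to -0.58 and Mt1 to -0.85 in WT and H1foo to -0.05 in KO. Thinning to 10000 UMIs turned Cd68 to -0.80, and to 40000 Med21 to -0.51 in WT and Bcl7a to 0.22 in KO. Cells of 40000 to 120000 UMIs turned Ikzf1 to 0.12, Med21 to -0.07 and Cd68 to -2.58 in WT and Mbd2 to 0.22 in KO. Normalized values turned Ddx4 to 1.80 in WT and Bcl7a to 0.12 in KO, and Ddx4 stood at 0.25 against cells with 0 or 1 rule gene. Another random seed turned Dppa3 to -0.14 in WT. The rule on thinned counts turned Egr1 to -1.72 and Mt1 to -1.22 in WT, Kctd14 to -0.04 in KO, and Egr1 to 1.40 and Tyrobp to -0.01 for KO over WT in cycling cells. Pooling all cells turned Bcl7a to 0.53 and Kctd14 to -0.71 in KO. Without the top cell Tmf1 in WT stood at 0.11, and with at least 5 rule genes Esam in KO at -0.10.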

Other observations

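Metallothionein Mt1, which binds zinc and copper, was higher in cycling cells of both labels, with 150 UMIs against 7 in WT and 41 against 8 in KO, log2 ratios of 2.32 (1.25 to 3.66) and 2.01 (0.90 to 3.32). The level did not follow the number of rule genes, standing at 54.4, 121 and 48.0 CPM in WT cells with 1 or 2, 3 or 4, and 5 or 6, and it was detected in 32.5% of WT and 11.5% of KO cycling cells. In WT it turned to -0.85 with a limit of 200 CPM of oocyte genes per cell. Platelet factor Pf4, a megakaryocyte gene, stood at 1532 CPM in WT cells with 5 or 6 rule genes and 276 in those with 3 or 4, and at 243 and 548 in KO. Blvrb, of heme breakdown, gave 1.05 (0.28 to 1.93) in WT and 0.40 (-0.15 to 0.96) in KO. Gas5, a noncoding host of small nucleolar RNAs that accumulates in resting cells, was lower by -0.50 (-0.61 to -0.38) and -0.28 (-0.39 to -0.17). Ddx4, a helicase of germ cells, held 63 UMIs in KO and 5 in WT cycling cells, a log2 ratio of KO over WT of 3.99 (2.69 to 5.66).

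Other gene lists gave small or unlike medians of the log2 ratio of cycling over 0-marker cells in the 2 labels, described without a test. The 25 measured granulocyte and macrophage progenitor genes had medians of -0.18 in WT and -0.10 in KO, and the 24 megakaryocyte genes 0.23 and -0.12. The 23 immediate early genes stood at 0.03 and -0.37, the 20 p53 targets at -0.72 and 0.16 and the 33 Mediator subunits at 0.13 and -0.41. Between labels within the cycling cells, 12 of the 23 immediate early and 9 of the 25 progenitor genes passed 2-fold higher in KO, where 12.9% of all genes did, with medians of 1.41 and 0.45. In 0-marker cells 11 and 8 of them did, where 15.8% of all genes did, with medians of 1.03 and 0.52. The progenitor list holds Itgam and Tyrobp, which the study had reported higher in KO in these same cells.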
